A study of Mus musculus with 2 samples.

Results

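The 39 genes described here are the genes of the cell cycle and of DNA replication chosen by symbol from a table of 23157 genes, which a poly(A)-selected RNA-seq experiment measured in E12.5 mouse distal forelimbs. By role they fall into 9 S-phase genes (Mcm2 to Mcm7, Pcna, Rrm1 and Rrm2), 8 other genes of the G1/S transition, 18 G2/M genes, and 4 D cyclins and CDK inhibitors. Of the 2 libraries, 1 came from wild-type embryos and the other from embryos homozygous for HoxD Inv(TpSB1-Itga6), in which 2.4 Mb of chromosome 2 beside the HoxD cluster are inverted. Both carried the strain label C57Bl6CBAF1 and the tissue label distal limb, and each was a pool of 3 pairs of forelimbs. The wild-type sample is titled wtFL, while its column in the table is named for the distal forelimb. The question asked here is whether proliferation genes differed between these tissues, and whether S-phase genes differed from G2/M genes.

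A dividing cell first licenses its origins of replication in G1, when Cdc6 and Cdt1 load the Mcm2 to Mcm7 helicase onto DNA, and then copies the genome in S phase with polymerases held by the Pcna clamp and with deoxynucleotides made by ribonucleotide reductase. Genes of this first wave are switched on by E2F factors, whereas genes needed for spindle assembly, chromosome segregation and cytokinesis peak in G2 and mitosis, many of them through the CCAAT box and the cell cycle genes homology region (CHR). In the early limb bud, mesenchymal cells divide rapidly, and condensing cartilage and differentiating muscle leave the cycle.

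With a single library for each genotype, none of the differences given here could be checked against replicates, and no p-value between genotypes is given. Values are normalized reads, in which the reads of a library were scaled by its size factor, and whole reads could be recovered from them. These summed to 9280660 in wild type and 9466154 in the inversion. A log2 ratio is that of inversion over wild type with a pseudocount of 1, and its 95% interval is the exact Clopper-Pearson interval for the fraction of the gene's reads that came from the inversion library. Such an interval covers counting error only and compares these 2 libraries, not the genotypes. The background is formed by the 16756 genes whose mean was 10 normalized reads or more, a filter that all 39 members passed, and their median log2 ratio was -0.02.

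Promoter sequences are shown first, since the first wave is linked to E2F factors and many genes of the second to the CCAAT box and the CHR. RefSeq windows on GRCm38.p6, each from 250 bases before to 50 after a start site, were found for 31 of the 39 genes (33 windows). Capitals mark the words searched on both strands, which are TTTCCCGC or TTTGGCGC for E2F, CCAAT for the CCAAT box and TTTGAA for the CHR, and none of these words contains another. Mcm6 and Rrm1 stand for the S-phase genes, the first with E2F words and the second, the member with the lowest log2 ratio, without. Top2a, the most highly read member, and Ccnb2 stand for the G2/M genes with CCAAT and CHR words. Birc5 is shown as a G2/M gene whose window held none of them.
Mcm6 promoter (chr1:128359656-128359955, minus strand): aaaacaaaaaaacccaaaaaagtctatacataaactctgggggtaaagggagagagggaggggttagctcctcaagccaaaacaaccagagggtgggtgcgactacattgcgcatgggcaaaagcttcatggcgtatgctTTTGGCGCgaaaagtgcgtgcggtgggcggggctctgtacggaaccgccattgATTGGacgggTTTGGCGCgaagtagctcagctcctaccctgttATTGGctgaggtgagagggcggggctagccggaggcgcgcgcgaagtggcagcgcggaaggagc
Rrm1 promoter (chr7:102441445-102441744, plus strand): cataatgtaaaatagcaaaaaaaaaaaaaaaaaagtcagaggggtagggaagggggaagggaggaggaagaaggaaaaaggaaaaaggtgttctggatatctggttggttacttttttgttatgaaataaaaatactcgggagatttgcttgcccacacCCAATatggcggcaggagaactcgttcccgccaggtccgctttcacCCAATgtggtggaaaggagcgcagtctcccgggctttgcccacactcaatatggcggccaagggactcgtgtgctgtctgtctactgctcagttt
Top2a promoter (chr11:99024140-99024439, minus strand): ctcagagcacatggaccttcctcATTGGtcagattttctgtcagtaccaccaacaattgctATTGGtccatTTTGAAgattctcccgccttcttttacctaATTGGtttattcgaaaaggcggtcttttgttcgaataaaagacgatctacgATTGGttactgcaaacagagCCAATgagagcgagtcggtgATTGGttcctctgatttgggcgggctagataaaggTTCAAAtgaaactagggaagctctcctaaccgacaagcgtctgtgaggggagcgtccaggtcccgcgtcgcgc
Ccnb2 promoter (chr9:70421505-70421804, minus strand): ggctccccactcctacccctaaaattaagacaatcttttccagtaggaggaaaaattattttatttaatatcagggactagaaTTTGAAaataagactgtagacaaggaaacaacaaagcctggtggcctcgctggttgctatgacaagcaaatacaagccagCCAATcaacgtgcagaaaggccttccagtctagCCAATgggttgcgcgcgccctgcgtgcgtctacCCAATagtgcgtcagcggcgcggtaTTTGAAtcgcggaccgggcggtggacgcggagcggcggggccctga
Birc5 promoter (chr11:117848987-117849286, plus strand): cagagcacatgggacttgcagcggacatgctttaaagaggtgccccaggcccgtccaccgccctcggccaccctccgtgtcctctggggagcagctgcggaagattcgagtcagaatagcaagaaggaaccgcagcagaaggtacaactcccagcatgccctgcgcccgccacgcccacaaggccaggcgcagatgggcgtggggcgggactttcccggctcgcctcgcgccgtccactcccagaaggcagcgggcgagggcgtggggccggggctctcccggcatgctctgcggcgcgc

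All 9 windows of the S-phase genes held a CCAAT word, and 4 of them (44.4%), those of Mcm3, Mcm5 and Mcm6 and one of Mcm7, held an E2F word. Among the 6 windows of the other G1/S genes, those of Cdc6 and Cdt1 held an E2F word and none held CCAAT or CHR. A CHR word was found in 1 S-phase window (11.1%), that of Mcm2. In the G2/M genes CCAAT was again the most frequent word, in 13 of 15 windows (86.7%), but 10 windows (66.7%) held CHR and none held an E2F word. Over all 32851 windows these shares were 1.56% for E2F, 37.4% for CCAAT and 17.9% for CHR. In 52 windows of the further replication genes described below they were 17.3%, 48.1% and 17.3%. In 50 windows of the further mitosis genes they were 8%, 72% and 70%. A match is a description of letters and not a bound site. Members whose window held the CHR word had a median log2 ratio of -0.21 (11 genes) against -0.13 for the 20 without it, members with an E2F word one of -0.21 (6 genes) against -0.14 for 25 without, and those with CCAAT one of -0.15 (22 genes) against -0.09 for 9 without. The ranges overlapped widely for each word, for example from -0.32 to -0.08 with CHR and from -0.39 to 0.18 without it.

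Most of the proliferation genes were slightly lower in the inversion library. Of the 39 genes, 32 had a log2 ratio below 0 and 7 above, with a median of -0.16 and a range of -0.39 (Rrm1) to 0.18 (Ccnb1). For comparison, 53.4% of all genes tested and 59.4% of the 9385 genes within the members' range of means were below 0, the latter with a median of -0.04. None of the members (0) differed by 2-fold or even 1.5-fold in either direction. A 2-fold difference was seen upwards in 3.99% and downwards in 0.483% of all genes, and a 1.5-fold difference in 9.41% and 2.04%. Within the members' range of means these shares were 0.746% and 0.0426% for 2-fold and 2.64% and 0.298% for 1.5-fold. The 95% interval lay below 0 for 25 members and above 0 for none, against 13% and 16.7% of all genes and 19.7% and 16.5% of genes within that range. Summed over members, 64444 normalized reads in wild type stood against 56394 in the inversion, a change of -12.5% or a log2 ratio of -0.19 (95% interval -0.21 to -0.18). By the exact binomial test on the recovered reads, with Benjamini-Hochberg adjustment over all genes tested, 21 members were lower and 0 higher at an adjusted p under 0.05, against 7.87% of all genes lower and 12.3% higher, a test that again compares the libraries and not the genotypes. These shares cover all genes tested, many of them with fewer reads than the members. More reads make a given difference easier to call, and the shares within the members' range of means were not taken. As a share of all reads the members made up 0.686% in wild type and 0.603% in the inversion. Top2a alone gave 11.1% of the members' wild-type reads, and without it the log2 ratio of the sums was -0.18. In bulk tissue, fewer dividing cells and less RNA per dividing cell cannot be told apart.

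**Figure D1:**
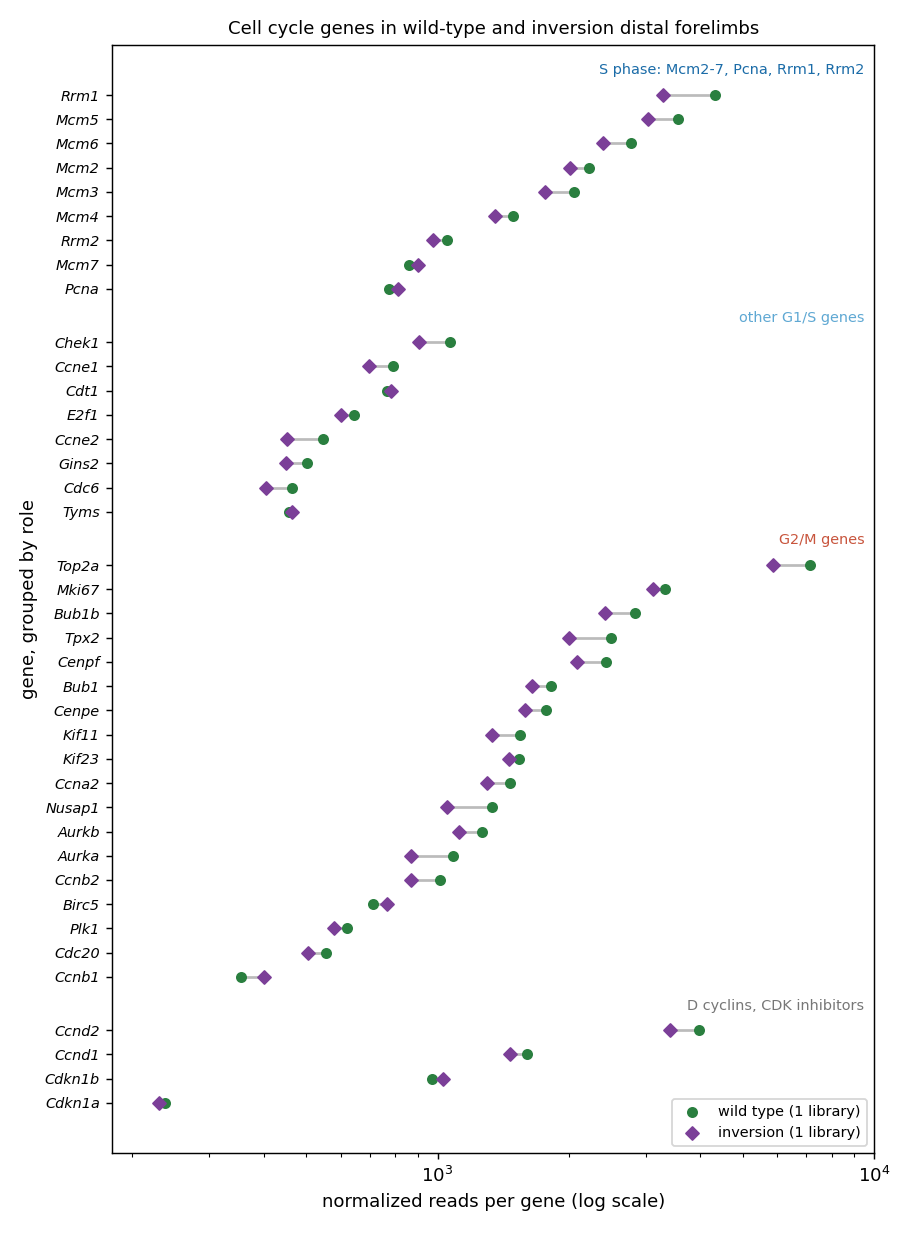
Normalized reads per gene (log axis) of the 39 genes in the wild-type library (green circles) and the inversion library (purple diamonds), 1 library each, grouped by role. The inversion value lies left of the wild-type value for 32 genes and right of it for 7, and no pair is as far apart as 1.5-fold.

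The Mcm2 to Mcm7 proteins form the ring-shaped replicative helicase. Mcm5 was the most highly read of the 6 genes, with 3563 normalized reads in the wild-type and 3028 in the inversion library (log2 ratio -0.23, 95% interval -0.31 to -0.16). Mcm6 had 2780 and 2391 (-0.22, -0.30 to -0.14) and Mcm3 had 2059 and 1764 (-0.22, -0.32 to -0.13). These 3 subunits thus lay close together, with changes of -15.0% for Mcm5, -14.0% for Mcm6 and -14.3% for Mcm3. Mcm2 followed with 2223 and 2011 normalized reads (-0.14, -0.23 to -0.06) and Mcm4 with 1490 and 1354 (-0.14, -0.24 to -0.03). Mcm7 was the exception, with 860 normalized reads for wild type and 904 for the inversion, a log2 ratio of 0.07 whose interval of -0.06 to 0.21 includes 0. Its main coding transcript had 429 and 407 (-0.08, -0.28 to 0.12), the other sign, again with an interval that includes 0. Thus 5 of the 6 helicase subunits were lower with an interval below 0, against 19.7% of genes within the members' range of means. The log2 ratio of the summed reads of all 6 was -0.18 (95% interval -0.22 to -0.14). Subunits of this complex did not have equal levels per length. In RPKM, taken as the reads of all transcripts over the length of the main coding transcript, Mcm5 had 112 and Mcm6 had 102 in wild type, while Mcm3, Mcm2 and Mcm4 had 72.3, 70.2 and 44.2 and Mcm7 had 30.9. Of the 3563 wild-type normalized reads of Mcm5, 1316 were in its main coding transcript, so its rank depends on which reads are counted.

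Ribonucleotide reductase reduces ribonucleotides to the deoxynucleotides that replication uses, with Rrm1 as the large and Rrm2 as the small, cell cycle-limited subunit. Rrm1 (chromosome 7, 102441695 to 102469771 on GRCm38, plus strand) had the lowest log2 ratio of all members, with 4318 normalized reads in wild type against 3291 in the inversion (-0.39, 95% interval -0.46 to -0.33), a change of -23.8%. It is listed with 1 transcript, so that no choice among transcripts enters this value. Among all genes tested, 4.30% had a log2 ratio as low or lower. Rrm2, with 1050 and 975 normalized reads, had a log2 ratio of -0.11 (-0.23 to 0.02). These intervals do not overlap, but the main coding transcript of Rrm2, that with the highest mean, had 810.1 and 695 (-0.22, -0.37 to -0.07), an interval that overlaps that of Rrm1. Pcna, the sliding clamp of the replicative polymerases, had 774 normalized reads in the wild-type and 814 in the inversion library (0.07, -0.07 to 0.22), a difference not detectable at this depth. Its coding transcript alone had 254 and 210 (-0.27), the other direction. The processed pseudogene Pcna-ps2 matched Pcna over 781 bases at 99.2% identity, and had 584 and 546 normalized reads, so that reads may be split between them. Both together had 1358 and 1360, a log2 ratio of 0.00 (-0.11 to 0.11).

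The remaining G1/S genes act before or at the start of replication. E cyclins activate CDK2 at the G1/S transition, and both were lower, Ccne2 with 548 and 452 normalized reads (-0.28, -0.46 to -0.09) and Ccne1 with 790 and 696 (-0.18, -0.33 to -0.03). Chek1, the checkpoint kinase that restrains CDK activity when replication stalls, had 1065 and 907 (-0.23, -0.36 to -0.10). The licensing factor Cdc6 was at 465 and 405 (-0.20, with an interval that ends just below 0), and Cdt1, its partner in loading the helicase, at 765 and 782 (0.03, -0.11 to 0.18). The intervals of these licensing factors overlap, and only that of Cdc6 lay below 0. Gins2, a subunit of the GINS complex that completes the active helicase, had 502 and 449 (-0.16, -0.35 to 0.03). E2f1, a transcription factor of S-phase genes, had 643 and 602 (-0.09, -0.26 to 0.07). Tyms, which makes thymidylate, had 458 and 465 (0.02, -0.17 to 0.21), and -0.14 in its coding transcript. For Gins2, E2f1, Tyms and Cdt1 no difference was detectable at this depth, and 67.3% of the exon bases of Gins2 lie in exons of Gse1 on the other strand, 17.4% of those of Ccne2 in Ints8. Of the exon bases of Mcm7, 12.6% are shared with other genes, namely Ap4m1 (651 and 878 normalized reads) and Cops6 on the other strand and the miRNA genes Mir25 and Mir93 on the same strand. Overlap with a gene on the other strand was also found for a similar part of Ccna2 with Exosc9 (751 and 550), and for 23.4% of Ccnd1 with Oraov1 (426 and 462). Although the libraries were stranded, the sources used here do not state whether the counting used the strand.

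Among G2/M genes, Top2a, the topoisomerase that untangles sister chromatids, was the most highly read member of all 39 (chromosome 11, 98992943 to 99024189 on GRCm38, minus strand). It had 7143 normalized reads for wild type and 5866 for the inversion (-0.28, 95% interval -0.33 to -0.23), a change of -17.9%. Mki67, the antigen that coats mitotic chromosomes and is widely used to mark dividing cells, had 3326 and 3115 (-0.09, -0.17 to -0.02). Its interval lies below 0 but does not overlap that of Top2a, and thus these commonly used proliferation markers differed in size by more than counting error. The promoter windows of both genes held CCAAT and CHR words.

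The mitotic cyclins were read at different levels, and for Ccna2 and Ccnb2 the interval lay below 0. Ccna2, the A cyclin of S and G2, had 1464 and 1299 normalized reads (-0.17, -0.28 to -0.06), and Ccnb2 had 1016 and 871 (-0.22, -0.35 to -0.09). Ccnb1, the B cyclin that with CDK1 drives entry into mitosis, had 354 and 401 (0.18, -0.03 to 0.39), the highest log2 ratio of the 39 genes and one whose interval includes 0. Ccnb1 matched Gm5593 (1287 bases, 99.2% identity) and the processed pseudogene Gm12856 (1294 bases, 98.1%). With their reads added it had 530 and 571 (0.11, -0.06 to 0.28).

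Mitotic kinases were all below 0. Aurka, which acts at centrosomes and spindle poles, had 1088 and 870 normalized reads (-0.32, -0.45 to -0.19), and Tpx2, the spindle protein that activates it, had 2492 and 1999 (-0.32, -0.40 to -0.23). This kinase and its activator had changes of -20.0% and -19.8% over all transcripts, and log2 ratios of -0.30 and -0.23 in their main coding transcripts. Aurkb, the kinase of the chromosomal passenger complex, had 1266 and 1119 (-0.18, -0.30 to -0.06), and Birc5, the survivin subunit of the same complex, had 713 and 767 (0.11, -0.04 to 0.26), although its main coding transcript was at -0.21. Plk1, a kinase of mitotic entry and exit, had 622 and 578 (-0.11, -0.27 to 0.06). Nusap1, which bundles spindle microtubules, had 1333 and 1049 (-0.35, -0.46 to -0.23), the lowest log2 ratio among the G2/M genes. The motors Kif11, which pushes spindle poles apart, and Kif23, which builds the central spindle for cytokinesis, had 1544 and 1331 (-0.21, -0.32 to -0.11) and 1537 and 1455 (-0.08, -0.18 to 0.02). Over the 4 spindle genes Tpx2, Nusap1, Kif11 and Kif23 the log2 ratio of summed reads was -0.24 (-0.29 to -0.19).

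Genes of the spindle assembly checkpoint and the kinetochore lay close together. The checkpoint kinase Bub1 had 1824 and 1647 normalized reads (-0.15, -0.24 to -0.05), and Bub1b, the BubR1 subunit of the mitotic checkpoint complex, had 2833 and 2425 (-0.22, -0.30 to -0.15). The kinetochore motor Cenpe had 1771 and 1583 (-0.16, -0.26 to -0.06) and the kinetochore protein Cenpf had 2434 and 2089 (-0.22, -0.31 to -0.14). Cdc20, which activates the anaphase-promoting complex, had 554 and 505 (-0.13, -0.31 to 0.04). All 5 log2 ratios lay between -0.22 and -0.13, and 4 of the 5 intervals lay below 0, against 19.7% of genes within the members' range of means.

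D cyclins link growth signals to CDK4 and CDK6, and Ccnd1 and Ccnd2 are both expressed in the limb bud. Ccnd2 had 3968 and 3409 normalized reads (-0.22, -0.29 to -0.15) and Ccnd1 had 1604 and 1468 (-0.13, -0.23 to -0.03). The CDK inhibitor Cdkn1b (p27), which is high in cells that leave the cycle, had 971 and 1030 (0.08, -0.04 to 0.21). Cdkn1a (p21), a p53 target and also a CDK inhibitor, was the member with the fewest reads, 238 and 230 (-0.05, -0.32 to 0.22). Hence both D cyclins had an interval below 0 and the interval of neither inhibitor lay on 1 side of 0. Of genes within the members' range of means, 19.7% had an interval below 0 and 16.5% one above 0.

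**Figure D2:**
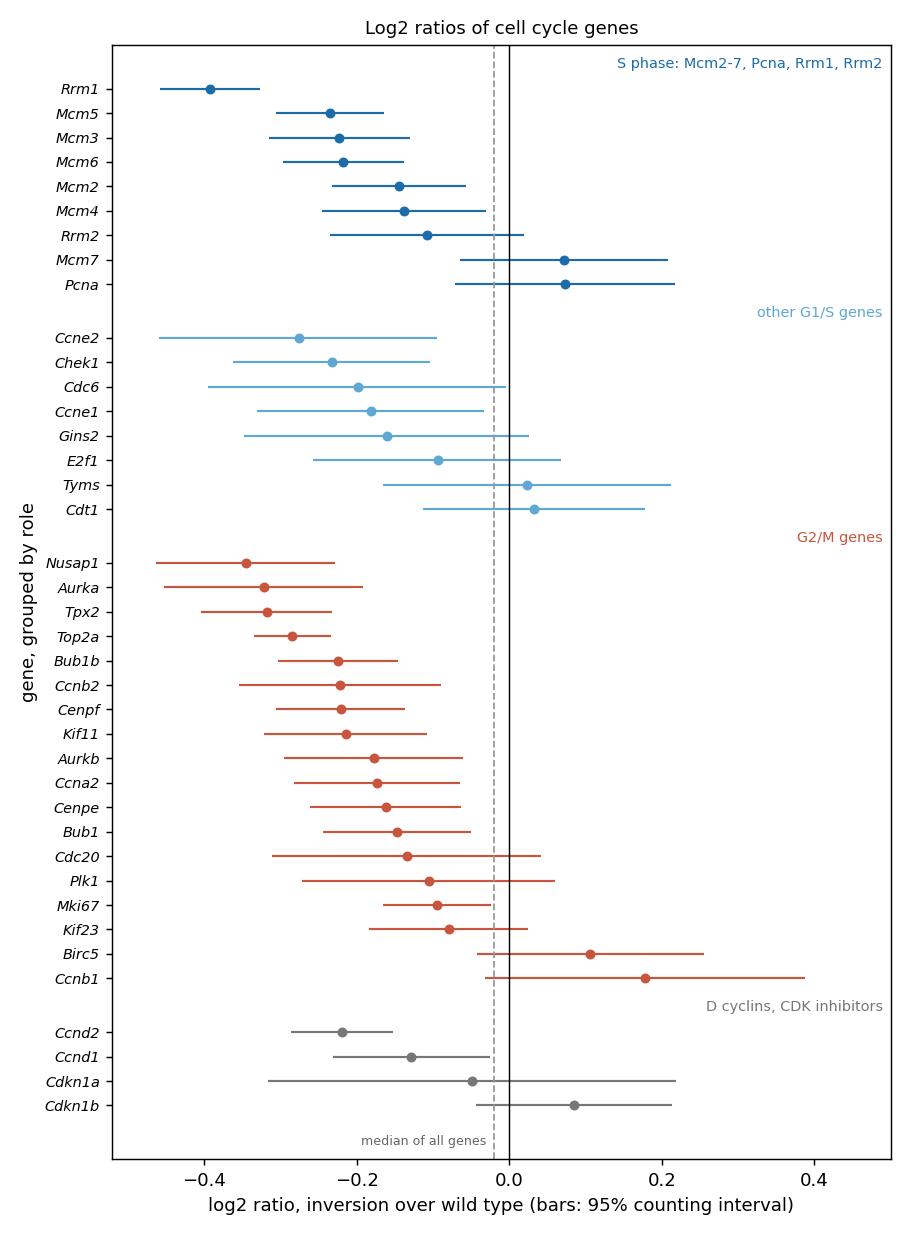
Log2 ratio of inversion over wild type for each of the 39 genes, grouped by role and sorted within groups, where bars are 95% counting intervals and the dashed line is the median of all genes tested (-0.02). The bars of 25 genes lie left of 0 and no bar lies wholly right of it.

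S-phase and G2/M genes were lower by nearly the same amount in these libraries. The 9 S-phase genes had a median log2 ratio of -0.14, with 7 lower and 2 higher and 6 intervals below 0. The 18 G2/M genes had a median of -0.18, with 16 lower and 2 higher and 13 intervals below 0. Among genes within the members' range of means, 59.4% were below 0 and 19.7% had an interval below 0. S-phase genes summed to 19114 normalized reads in wild type against 16530 in the inversion (-0.21, 95% interval -0.24 to -0.18), and G2/M genes to 33313 and 28968 (-0.20, -0.22 to -0.18). The difference of the medians, S phase minus G2/M, was 0.03, while that of the log2 ratios of summed reads was -0.01 with a counting interval of -0.05 to 0.03, so that the sign depended on the summary. With all 17 genes of G1/S in place of the 9 S-phase genes, the difference of the medians was 0.02. The other 8 G1/S genes had a median of -0.17, with 6 lower and 2 higher, and the D cyclins and CDK inhibitors one of -0.09, with 3 lower and 1 higher.

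Among themselves the members varied by more than counting error in part. The intervals of 26 members include the log2 ratio of the pooled reads (-0.19), those of Rrm1, Top2a, Tpx2 and Nusap1 lie below it, and those of Mcm7, Pcna, Tyms, Cdt1, Mki67, Ccnb1, Kif23, Birc5 and Cdkn1b lie above it. Genes with more reads had lower log2 ratios, in the members and to a lesser extent in all genes. The 16 members with a mean of 300 to 1000 normalized reads had a median of -0.12 (all such genes -0.03), the 17 members from 1000 to 3000 one of -0.17 (all -0.05), and the 5 members above 3000 one of -0.23 (all -0.08). In each of these classes, therefore, the members' median was below that of all genes. Members lay on 15 chromosomes, 7 of them (Aurka, Bub1, Bub1b, E2f1, Nusap1, Pcna and Tpx2) on chromosome 2, which carries the inversion. On GRCm38 these 7 lie between 118598211 and 172370535, far from the HoxD cluster and outside the inverted segment. The median of these 7 was -0.22 and that of the 32 others -0.16, with -0.02 for all genes on and for all genes off this chromosome.

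The sign of several members that were higher changed with the choice of transcripts, mostly with intervals that include 0. The table holds 140 transcripts of the 39 genes, and 17 genes have transcripts annotated as retained intron, which keep part of an intron and do not code for the protein. Over all members, protein-coding transcripts had 50598 normalized reads in the wild-type and 43806 in the inversion library (-0.21, 95% interval -0.23 to -0.19), whereas 33 retained-intron transcripts had 2603 and 2646 (0.02, -0.06 to 0.10). In 13 of the 17 genes the retained-intron log2 ratio was above that of the coding transcripts, with medians of 0.01 and -0.18. The same was seen across the table, where among 3626 genes with both kinds 74.8% had the retained-intron value above the coding value, with medians of 0.19 and -0.04. Pcna is an example, since its retained-intron transcripts had 155 and 228 normalized reads (0.56, 0.26 to 0.86) while its coding transcript had 254 and 210 (-0.27, with an interval that ends just below 0). Retained-intron transcripts of Tyms had 72 and 107 (0.56, 0.12 to 1.02) and those of Ccnb1 94 and 134 (0.51, 0.12 to 0.91). The other way round, those of Tpx2 had 253 and 162 (-0.64, -0.94 to -0.35). Of the 7 members that were higher, all with intervals that include 0, 4 (Mcm7, Pcna, Tyms and Birc5) had a log2 ratio below 0 in their main coding transcript, the coding transcript with the highest mean. For Mcm7 (-0.28 to 0.12) and Tyms (-0.51 to 0.23) this interval includes 0 as well. For Birc5 the main transcript of 947 bases had 358 and 310 (-0.21, -0.43 to 0.01), and a longer coding transcript of 3334 bases 227 and 339 (0.58, 0.33 to 0.83). Together the coding transcripts of Birc5 had 585 and 649 (0.15, -0.01 to 0.31). When the main coding transcript stood for each gene, 36 of the 39 genes were below 0 and 3 above, with a median of -0.21, against 57.7% of 13297 genes below 0 and a median of -0.04. Of these members 24 had an interval below 0 (14% of all genes) and 1, Cdkn1b with 639 and 725 normalized reads (0.18, 0.03 to 0.34), had one above 0 (11.9% of all genes). These shares were not restricted to genes with as many reads as the members. The other coding transcript of Cdkn1b had 332 and 305 (-0.12, -0.35 to 0.11).

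**Figure D3:**
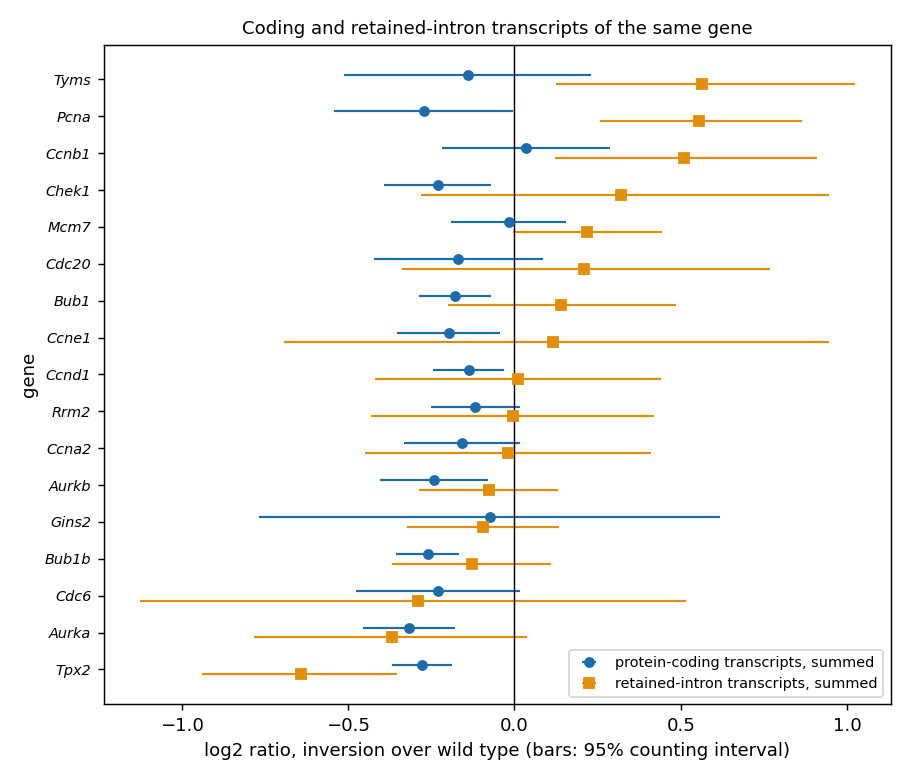
Log2 ratio of inversion over wild type for the summed protein-coding transcripts (blue circles) and the summed retained-intron transcripts (orange squares) of the 17 genes that have both, with 95% counting intervals as bars. The orange square lies right of the blue circle in 13 genes, and left of it in Tpx2, Aurka, Cdc6 and Gins2.

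Further genes of these pathways, listed by function, had the same direction with smaller medians. Among 50 more replication genes 39 were lower and 11 higher, with a median of -0.11, and 25 intervals lay below 0 and 3 above, where all genes tested had 53.4% below 0 and 13% and 16.7% of intervals below and above. Its extremes were Fen1, the flap endonuclease of lagging strand synthesis (185 and 143 normalized reads, -0.37), Cdc45, a part of the active helicase (1209 and 952, -0.34), the origin recognition subunit Orc4 (747 and 868, 0.22), and Cdc7, the kinase that fires origins (545 and 789, 0.53, 95% interval 0.38 to 0.69). The coding transcripts of Cdc7 summed to 406 and 300.2 (-0.43), the other direction. This lower sum rests on 1 coding transcript (156 and 0), while its other coding transcripts were higher (229 and 239.98, 21.3 and 60.2). Among 56 more mitosis genes 47 were lower and 9 higher, with a median of -0.15, and 30 intervals lay below 0 and 3 above. Melk, a kinase of dividing cells, had 1115 and 860 (-0.37) and Cdca5, the sororin that protects cohesion, 594 and 473 (-0.33), while Psrc1, a spindle protein, had 758 and 894 (0.24) and Hjurp, the chaperone that places CENP-A at centromeres, 2463 and 3342 (0.44, 0.36 to 0.52). Replication minus mitosis was 0.04 for the medians and -0.01 for the log2 ratios of the sums (counting interval -0.03 to 0.02). No gene of these lists was 1.5-fold different.

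The 29 further regulators (among them E2F, DP, MuvB core and pocket protein genes, CDKs and their inhibitors, CDK-regulating kinases and a phosphatase, and the antiproliferative Btg genes) were nearer to all genes, with a median of -0.03, 17 lower and 12 higher, 3 intervals below 0 and 1 above. The lower genes and the intervals below 0 were near the shares of all genes (53.4% and 13%). Intervals above 0 were fewer than the 16.7% of all genes. Cdkn2c, the CDK4/6 inhibitor p18, was lowest of the regulators with 197 and 133 normalized reads (-0.56, 95% interval -0.89 to -0.24), followed by E2f2 with 711 and 614 (-0.21). Rb1, the pocket protein that holds E2F factors back, had 333 and 386 (0.21, -0.00 to 0.43) and E2f5, an E2F factor of repression, 316 and 381 (0.27, 0.05 to 0.49). The log2 ratio of Cdkn2c was lower than that of every member, and its interval overlaps that of Rrm1. Of 12 p53 target genes 10 were lower and 2 higher (53.4% lower among all genes), with a median of -0.11 and 1 interval below 0 (13% among all genes). Gadd45a, the highest, had 136 and 145 (0.10, -0.25 to 0.45). Of these 12, Mdm2, the ubiquitin ligase that keeps p53 low, had 739 and 772 (0.06), Bbc3 103 and 86 (-0.26) and Fas 18 and 13 normalized reads (-0.47, -1.66 to 0.60).

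**Figure D4:**
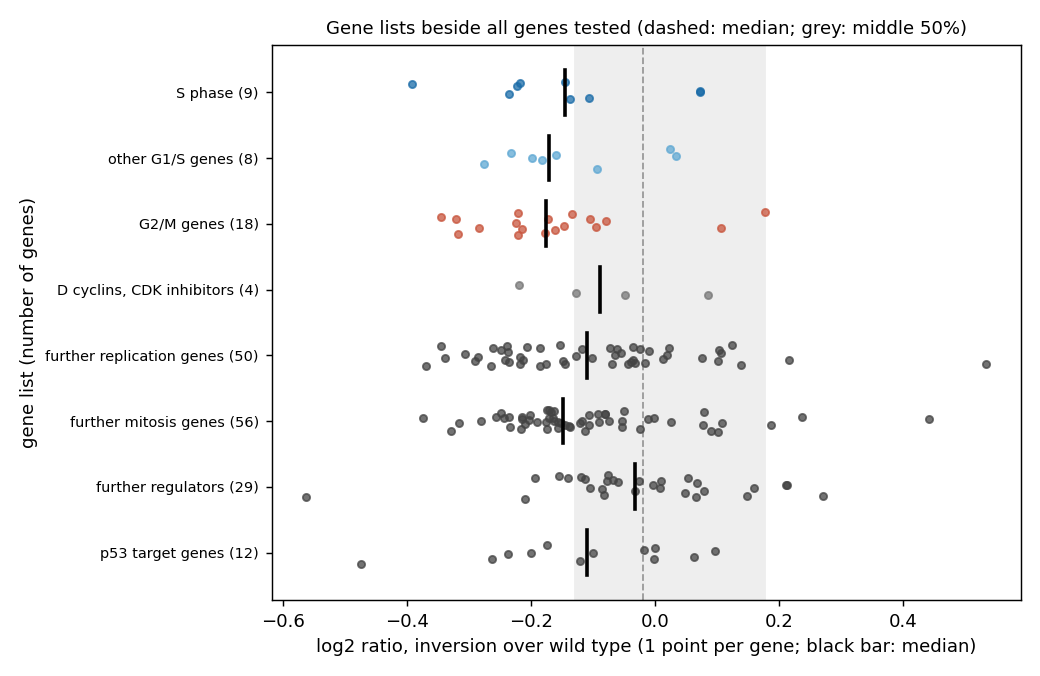
Log2 ratio of inversion over wild type, 1 point per gene, for the member lists and the further lists, with the number of genes in brackets, black bars at the medians, the dashed line at the median of all genes tested and grey over the middle 50% of all genes. The medians of the S-phase, other G1/S, G2/M and further mitosis genes (-0.14, -0.17, -0.18 and -0.15) lie left of the grey band, and that of the further regulators (-0.03) lies close to the dashed line.

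Other differences between the pools moved with these values. Of 6 chondrogenic markers 5 were higher (summed reads 13312 and 16486, median 0.40) and of 8 muscle markers 7 were higher (1161 and 2300, median 0.70), with 5 intervals above 0 in each list, against 16.7% of all genes. Of 8 distal mesenchyme markers, which include Hoxd12 and Hoxd13, 7 were lower (14246 and 12145, median -0.15), with 4 intervals below 0 and 1 above. Most of the drop in this sum came from Hoxd12 (1636 and 901, -0.86) and Hoxd13 (2292 and 1503, -0.61). The paper reports lower posterior Hoxd transcription with this inversion, so these genes cannot stand for tissue makeup here. The other markers of this list were Lhx2 (-0.43), Msx1 (-0.22), Lhx9 (-0.09), Msx2 (-0.06), Prrx1 (-0.02) and Hoxa13 (0.12). Of these, Lhx2 and Msx1 had an interval below 0 and Hoxa13 had one above 0. Log2 ratios were below 0 for 8 of 9 erythroid markers (16723 and 14013, median -0.23), of which Hbb-y gave 14589 and 12088, for all 6 endothelial markers (3851 and 3558, median -0.11) and for all 8 ectoderm markers (5495 and 4730, median -0.22), and the interval lay below 0 for 2, 2 and 5 of them, against 13% of all genes. Of all genes 53.4% were below 0. Within the members' range of means 59.4% were below 0 and 19.7% had an interval below 0. The ectoderm median was thus below that of the 39 genes (-0.16). None of these markers was at 0 in either library. The wild-type library held 2607 reads of Xist and the inversion library 13, and 4 Y-linked genes had 826 and 2820 reads, so that the sex makeup of the pools and the genotype cannot be told apart. The part of tissue composition in the values of the 39 genes was not tested.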

How the data were processed

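RNA from E12.5 distal forelimbs was poly(A)-selected and sequenced as stranded single-end reads, 1 library per genotype. The authors mapped the reads to NCBIM37 (mm9) with Bowtie2, as the submitters' processing notes list them, and counted them per transcript with HTSstation. The signal deposited for each transcript is its read number after scaling of each library with a size factor, although the paper's methods name RPKM. Transcripts without reads are written as 0.5 and were set to 0, and 100% of the higher values were whole reads within a tolerance of 0.006. The deposited fold change (a ratio), its log2 value, p-value and adjusted p-value are the authors' own comparison and were not used. No per-sample column was left unmapped (0). Depth was 9280660 reads for wild type and 9466154 for the inversion.

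Transcripts were summed by symbol and chromosome to 23157 genes, and log2 ratios had a pseudocount of 1 and were taken for the 16756 genes that reached a mean of 10, a scale on which differences of genes with few reads are understated. A fold threshold of 2 gave the background counts. Intervals are exact Clopper-Pearson intervals at 95%, and those of a difference between summed lists are a normal approximation on the log scale. Tested on recovered reads, an exact binomial test with Benjamini-Hochberg adjustment at 0.05 called 2068 genes higher and 1318 lower, and the 2-fold counts were 668 and 81.

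Members and lists were chosen with earlier results of these data known. Named are all 39 members, the 2 highest and 2 lowest genes of each further list, and genes a result turns on (Pcna-ps2, Gm5593, Gm12856, Gse1, Ints8, Ap4m1, Cops6, Mir25, Mir93, Exosc9, Oraov1, Hbb-y, Hoxd12, Hoxd13, Lhx2, Lhx9, Msx1, Msx2, Prrx1, Hoxa13, Xist), chosen after their values were seen. Of the listed genes, Cdkn2a and Tfap2b were not analysed here. Lengths, transcript types and positions were looked up by transcript identifier in GENCODE M21 (88.1% of transcripts found), whose build GRCm38 is not the one used for mapping, and no coordinate was converted. RPKM used the length of the main coding transcript and the reads of all transcripts of a gene. Near-identical copies were those with at least 97% identity over at least 100 bases. The alternatives were scaling by the total or the upper quartile, pseudocounts of 5 and 0.1, other choices of transcripts, a higher minimum mean (100) or none, and thresholds of 1.5-fold and 4-fold. The steps were tested on simulated data. Computation used Python 3.11.15 with scipy 1.17.1, pandas 2.3.3 and numpy 2.4.6, and figures matplotlib 3.10.9.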

Additional observations from a re-analysis of the deposited data

How the results depend on the processing

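No paired analysis was possible because each genotype has 1 library, which also means that no replicate could be left out. Of 234 values of single members under other scalings, pseudocounts and transcript choices, 227 stayed within the counting interval and 7 did not, and 7 changed sign, all in Mcm7, Pcna, Tyms and Birc5. When the transcript with most reads was taken, Aurkb went from -0.18 to -0.36 and Tpx2 from -0.32 to -0.23 without a change of sign. The S-phase median, -0.14 as reported, was -0.22 with the transcript of highest mean, with protein-coding transcripts only and, added after seeing the data, with the main coding transcript. The G2/M median, -0.18 as reported, was -0.20 with the transcript of highest mean, -0.21 with the main coding transcript and -0.20 without retained-intron transcripts, the latter pair added after seeing the data. The difference S phase minus G2/M, 0.03 as reported, was -0.019 with the transcript of highest mean, -0.026 with protein-coding transcripts only, -0.012 with the main coding transcript and -0.0079 from summed reads, but 0.05 without retained-intron transcripts (added after seeing the data) and 0.04 for the further lists, so its sign is not settled by these libraries, and the cause was not tested. The 2-fold counts over all genes, 668 higher and 81 lower (89.2% higher), were 1992 and 1089 (64.7% higher) without the filter and 139 and 12 with a mean of at least 100, as other genes are then tested. With protein-coding transcripts only, 412 were higher and 110 lower (78.9% higher), and the cause was not tested. Thresholds of 1.5-fold and 4-fold gave by construction 1577 and 341, and 113 and 13, and the exact binomial test, which asks for no size of difference, 2068 and 1318. Scaling by the total or the upper quartile shifted all log2 ratios by 0.01 and -0.02. At these depths the interval of a member was between 0.10 and 0.54 wide on the log2 scale, which limits what single genes can show.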

Other observations

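Cdc7 and Hjurp, the highest of the further replication and mitosis genes, both had retained-intron transcripts with more reads in the inversion library. In Cdc7 these had 129.6 normalized reads for wild type and 440.5 for the inversion (log2 ratio 1.76), while its coding transcripts had 406 and 300.2 (-0.43). In Hjurp the retained-intron transcripts had 178 and 675 (1.91) and the coding transcripts 1739.6 and 2042 (0.23). The lower coding value of Cdc7 rests on 1 transcript of 2785 bases, with 156 normalized reads for wild type and 0 for the inversion, while its other coding transcripts had 229 and 239.98, and 21.3 and 60.2.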
